A study of Mus musculus with 6 samples.

Results

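In mice the large veins inside the lung carry a sleeve of cardiac muscle, so heart muscle genes can be read in whole lung. Whether the signal here came from that sleeve or from tissue attached to the lung was not tested. The account below covers 9 genes of the cardiac contractile apparatus, Myl7, Myl4, Myl3, Myl2, Myh7, Actc1, Tnnt2, Tnni3 and Tnnc1, which are 9 of 17097 genes with a probe set naming that gene alone. They were picked by symbol, and all of their single-gene probe sets were taken, 14 of 28898. RNA came from whole lungs of BALB/c males, 10 weeks old when they were divided. The hydrogen group (n = 3) lived for 3 weeks in 98% air with 2% molecular hydrogen, and the control group (n = 3) was kept in normal air over the same 3 weeks. Every lung was hybridised to its own MG-430 PM array, and values are log2 expression, so a difference of 1 is a change of 2-fold. The design asks how lung transcripts differ after the exposure. The genes were proposed for study with this very comparison already known, so their differences between the groups are described here without a test of their own. Whole lung is a bulk sample, in which fewer heart muscle cells and less RNA per cell cannot be told apart.

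The sarcomere is the repeating unit of contraction in heart and skeletal muscle. Myosin heavy chains form its thick filament and carry a pair of light chains each, an essential and a regulatory chain, while actin filaments carry the troponin complex, which binds calcium and lets myosin engage. Atria and ventricles use different light chains: Myl7 encodes the atrial regulatory and Myl4 the atrial essential chain, Myl2 the ventricular regulatory and Myl3 the ventricular essential chain. Muscle of the pulmonary veins is continuous with the left atrium and has an atrial character. Myh7 encodes the beta heavy chain, Actc1 cardiac actin, Tnnt2 the tropomyosin-binding, Tnni3 the inhibitory and Tnnc1 the calcium-binding subunit of cardiac troponin. Myl2, Myl3, Myh7 and Tnnc1 are also used by slow skeletal muscle fibres.

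Myl7 and Myl2, the regulatory light chain genes of atrium and ventricle, differed in direction between the groups, but Myl2 was dim. It lay below the median probe set (4.80 on the log2 scale) on all 6 arrays, where a small rise was common. No opposite regulation of the 2 genes is read from this. The 250 bases before the start of each are shown, from RefSeq on GRCm38.p6, which is C57BL/6J and not BALB/c sequence. The window of Myl7 is chr11:5898783-5899032 on the minus strand and that of Myl2 is chr5:122092474-122092723 on the plus strand. Capitals mark matches on either strand to GATAAG, the core bound by GATA factors, and to CANNTG, the E-box, where N is any base.
Myl7: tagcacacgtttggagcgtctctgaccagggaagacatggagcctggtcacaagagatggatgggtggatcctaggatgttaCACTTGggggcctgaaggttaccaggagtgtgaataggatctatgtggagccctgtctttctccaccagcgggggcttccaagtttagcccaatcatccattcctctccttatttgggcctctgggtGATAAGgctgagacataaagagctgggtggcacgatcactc
Myl2: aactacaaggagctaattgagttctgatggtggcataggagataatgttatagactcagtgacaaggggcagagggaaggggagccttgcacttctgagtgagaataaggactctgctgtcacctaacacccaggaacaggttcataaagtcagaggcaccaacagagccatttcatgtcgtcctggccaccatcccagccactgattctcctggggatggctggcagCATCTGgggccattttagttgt

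All 9 genes had at least 1 window in the RefSeq table, 12 in all. GATAAG was found in 1 of the 12, that of Myl7, where it lay 41 bases before the start, and was found in 6.55% of 32851 promoter windows of the same length. An E-box (168 bases before the start for Myl7 and 22 for Myl2) was found in 10 of the 12 and in 66.2% of all windows, TATAAA in 1 of the 12 and in 12.4% of all, and the MEF2-type core CTANNNNTAG in 0 of the 12 and in 3.20% of all. The motifs do not overlap in the windows shown, and a match is no evidence of binding.

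The atrial light chain genes were far lower in the hydrogen lungs. Myl7 had 9.91, 7.22 and 9.38 in the hydrogen mice, against 11.15, 10.83 and 11.05 in the control mice. The groups did not overlap, and the hydrogen mice lay far apart, replicate 2 lowest, while the controls lay close together. The difference was -2.17 (SE 0.57), or 4.51-fold lower in the hydrogen group, with means of 8.84 ± 1.42 in hydrogen and 11.01 ± 0.16 in control lungs (SD, n = 3 each). Myl4 had 9.52, 6.93 and 9.16 in the hydrogen mice, against 10.59, 10.39 and 10.47 in the control mice, by its brighter probe set (1422580_PM_at). Again hydrogen replicate 2 was lowest and no hydrogen value reached the control range. The difference was -1.95 (SE 0.56). A dim second probe set of Myl4 (1457126_PM_at) read 4.63, 4.54 and 4.58 in hydrogen and 4.55, 4.50 and 4.48 in control lungs, a difference of 0.07 (SE 0.05), and stayed below the median probe set (4.80 on the log2 scale) on all 6 arrays.

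The ventricular light chain genes gave no such uniform picture. Myl2 had 4.16, 4.05 and 4.18 in the hydrogen mice, against 3.75, 3.81 and 3.76 in the control mice. All hydrogen values were above all control values, a difference of 0.36 (SE 0.06), but the probe set lay below the median probe set on all 6 arrays. Over the 22509 probe sets at or below the median, 32% were called higher in hydrogen lungs (limma, Benjamini-Hochberg adjusted p below 0.05), so a small rise of a dim probe set was common. Myl3 had 6.12, 4.71 and 6.17 in the hydrogen mice, against 7.32, 6.92 and 6.80 in the control mice, by its brightest probe set (1427768_PM_s_at). Its groups did not overlap, and the difference was -1.35 (SE 0.35). The other Myl3 probe sets showed smaller differences, -0.32 (SE 0.17) for 1427769_PM_x_at, whose groups overlapped, and -0.49 (SE 0.14) for 1428266_PM_at, whose groups did not. Probe sets marked s or x by the maker can bind more than the named transcript, and the size for Myl3 therefore depends on the probe set read.

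The probe sets of Myh7 disagreed in the same manner. The one marked s (1448554_PM_s_at) had 8.97, 7.48 and 8.82 in the hydrogen mice, against 10.24, 10.01 and 10.08 in the control mice. All hydrogen values were below the controls, with replicate 2 lowest, a difference of -1.69 (SE 0.33). The probe set specific by its name (1448553_PM_at) had 8.50, 8.69 and 8.85 in the hydrogen mice, against 8.85, 9.13 and 9.03 in the control mice. There the highest hydrogen value met the lowest control value, the difference was -0.32 (SE 0.10), and hydrogen replicate 2 was not the lowest. Myh6, the alpha heavy chain of the adult mouse heart, had no probe set naming it alone in the annotation used, so the 2 heavy chains could not be set side by side.

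Cardiac actin and the 3 troponin subunits were lower together, by amounts near those of the atrial light chains. Actc1 had 9.73, 8.36 and 9.17 in the hydrogen mice, against 10.75, 10.63 and 10.72 in the control mice. The control values lay close together and above every hydrogen value, and the difference was -1.61 (SE 0.28). Tnnt2 had 9.03, 6.63 and 8.75 in the hydrogen mice, against 10.27, 9.88 and 9.93 in the control mice (1424967_PM_x_at, difference -1.89, SE 0.53). Its second probe set (1418726_PM_a_at), with 8.86, 6.58 and 8.65 in hydrogen and 10.05, 9.84 and 9.93 in control lungs, gave -1.91 (SE 0.50), so both probe sets of Tnnt2 told the same. Tnni3 had 8.41, 5.77 and 8.23 in the hydrogen mice, against 9.83, 9.61 and 9.63 in the control mice. It had the most negative difference of the 14 probe sets, -2.22 (SE 0.59), or 4.66-fold lower in the hydrogen group. Tnnc1 had 7.92, 5.70 and 7.77 in the hydrogen mice, against 9.14, 8.98 and 9.11 in the control mice, a difference of -1.95 (SE 0.50). For each of these 4 genes the groups did not overlap and hydrogen replicate 2 was lowest.

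**Figure D1:**
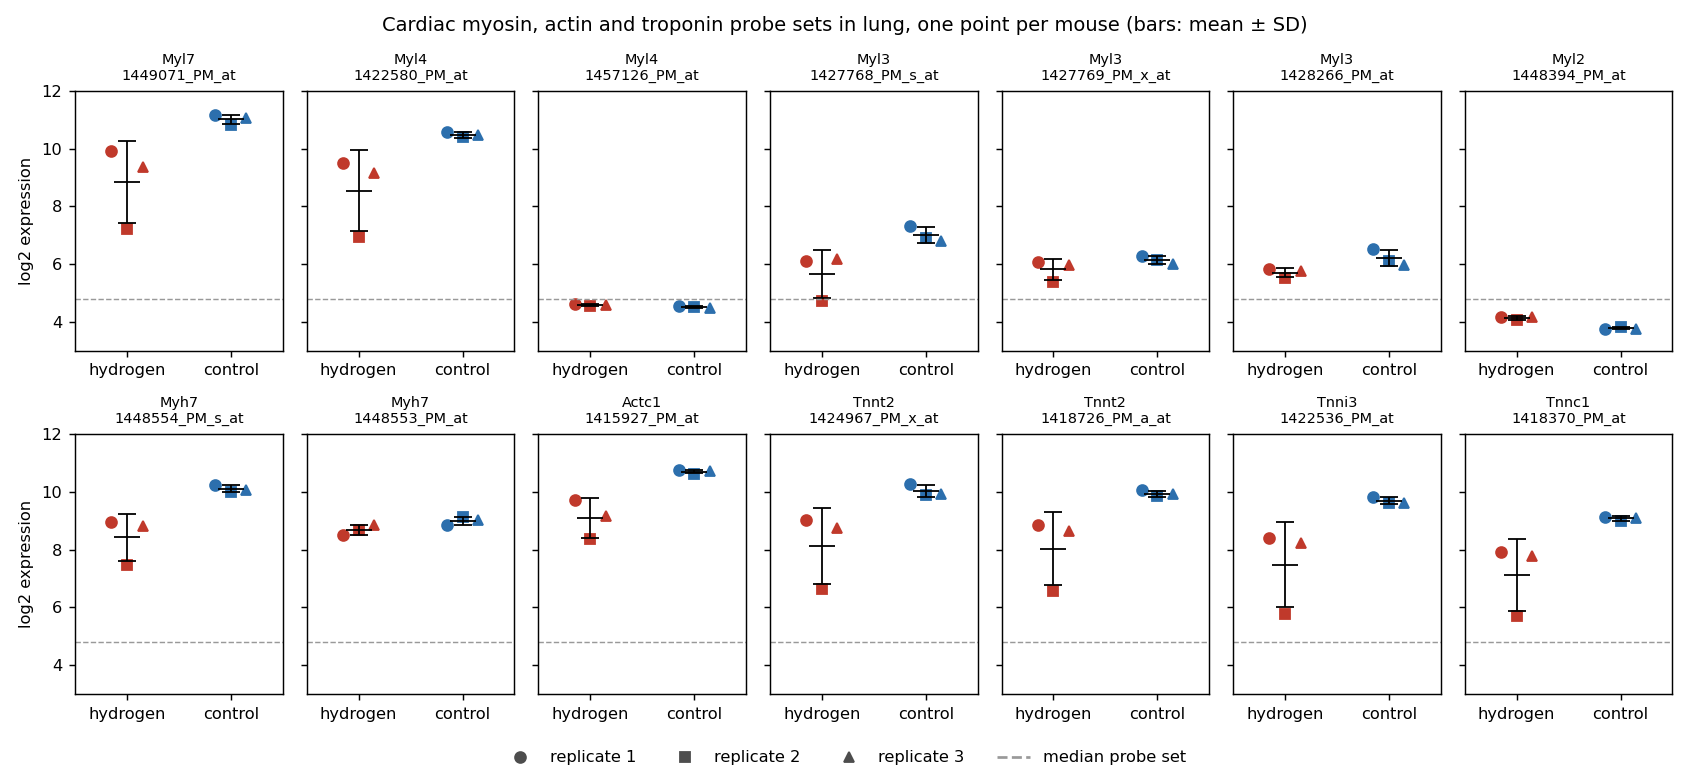
Log2 expression (vertical axis) of the 14 single-gene probe sets of 9 cardiac contractile genes in hydrogen (left, red) and control (right, blue) lungs, with 1 point per mouse, bars for mean ± SD (n = 3) and a dashed line at the median probe set. Hydrogen replicate 2 (square) is lowest for Myl7 (7.22), Myl4, Actc1, Tnnt2, Tnni3 and Tnnc1, while Myl2 lies below the dashed line in both groups.

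Counted over probe sets, 11 of the 14 were called lower and 1 higher (Myl2) at an adjusted p under 0.05 in limma, where 22.8% of all 45037 mouse probe sets were lower and 24.3% higher. The same comparison led to the choice of these genes, and nothing is read from that count. Groups did not overlap for 10 probe sets lower and 1 higher in hydrogen, against 26.4% and 30.9% of all probe sets. The median difference was -1.95 over the 3 atrial light chain probe sets, -0.41 over the 6 of Myl2, Myl3 and Myh7 and -1.91 over the 5 of actin and troponin, against 0.02 over all probe sets. The value of -0.41 depends on the probe sets counted. By brightest probe set Myl3 had -1.35 and Myh7 -1.69, with the dim Myl2 at 0.36. A difference of -1 or below was seen in 9 of the 14 probe sets and in 0.6% of all probe sets. With a prior variance that follows brightness and is fitted robustly, limma called 4 of the 14 lower (2 of Myh7, 1 of Myl3 and 1 of Actc1) and 1 higher (Myl2), with 23.4% of all probe sets lower and 26.1% higher. The Myl3 probe set called there was 1428266_PM_at (-0.49), while the brightest one (1427768_PM_s_at, -1.35) had no call. Myl7, Myl4, Tnnt2, Tnni3 and Tnnc1, whose hydrogen mice differed most among themselves, had no call there either.

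**Figure D2:**
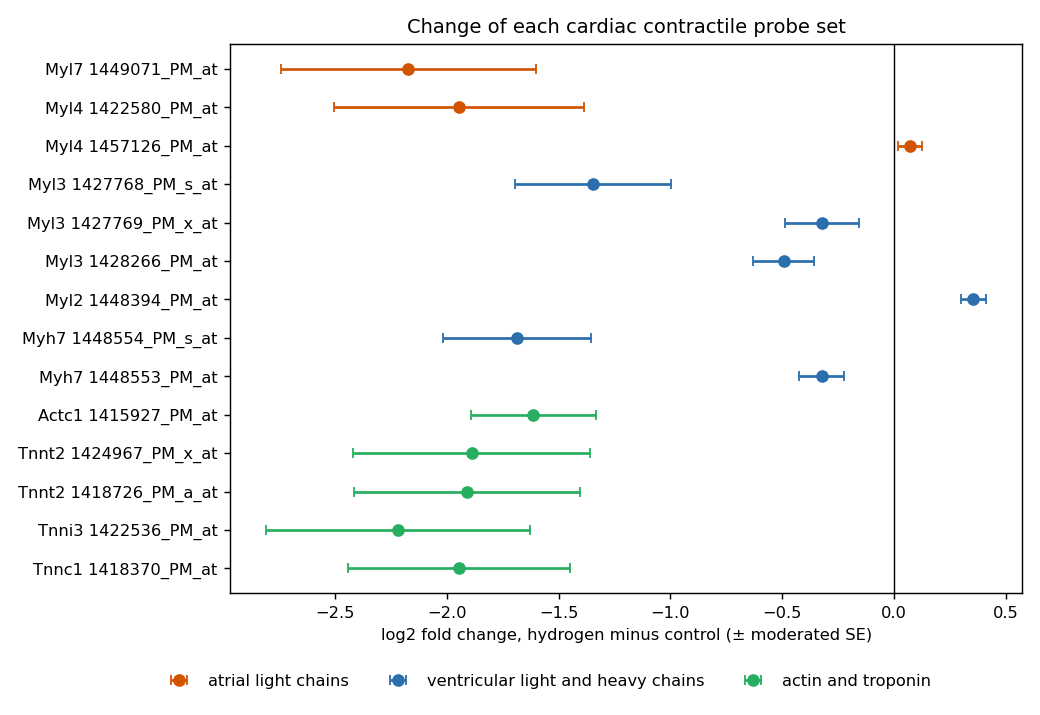
Log2 fold change, hydrogen minus control (horizontal axis), of each of the 14 probe sets with its moderated standard error, coloured by role. Myl7 (-2.17) and the brighter Myl4 probe set lie with actin and troponin, the probe sets of Myl3 and Myh7 spread from -1.69 to -0.32, and Myl2 is at 0.36.

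The 3 hydrogen mice differed strongly in how much was left. Over the 9 probe sets with a difference of -1 or below, hydrogen replicate 1 had 41.2% to 53.8% of the mean control level, replicate 2 had 6.61% to 20.3% and replicate 3 had 32.3% to 55.7%, where the control level is the geometric mean of 3 mice. For Myl7 the shares were 46.7%, 7.23% and 32.3%. For Tnni3 they were 41.2%, 6.61% and 36.3%. Thus every hydrogen mouse was low and replicate 2 was much lower than the other two. Over all mouse probe sets that array did not stand apart: the spread (SD) of its deviations from the hydrogen mean was 0.0926, against 0.0946 for replicate 1 and 0.0964 for replicate 3, and its median shift from the control mean was 0.02. Spread and median shift over all probe sets cannot show a difference confined to few of them. Without hydrogen replicate 2 the differences were -1.37 for Myl7, -1.14 for Myl4, -0.87 for Myl3, -1.14 for Tnnt2, -1.37 for Tnni3 and -1.23 for Tnnc1. In that fit 9 of the 14 probe sets were called lower. The share of all probe sets called in it was not counted, so nothing is read from that number.

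**Figure D3:**
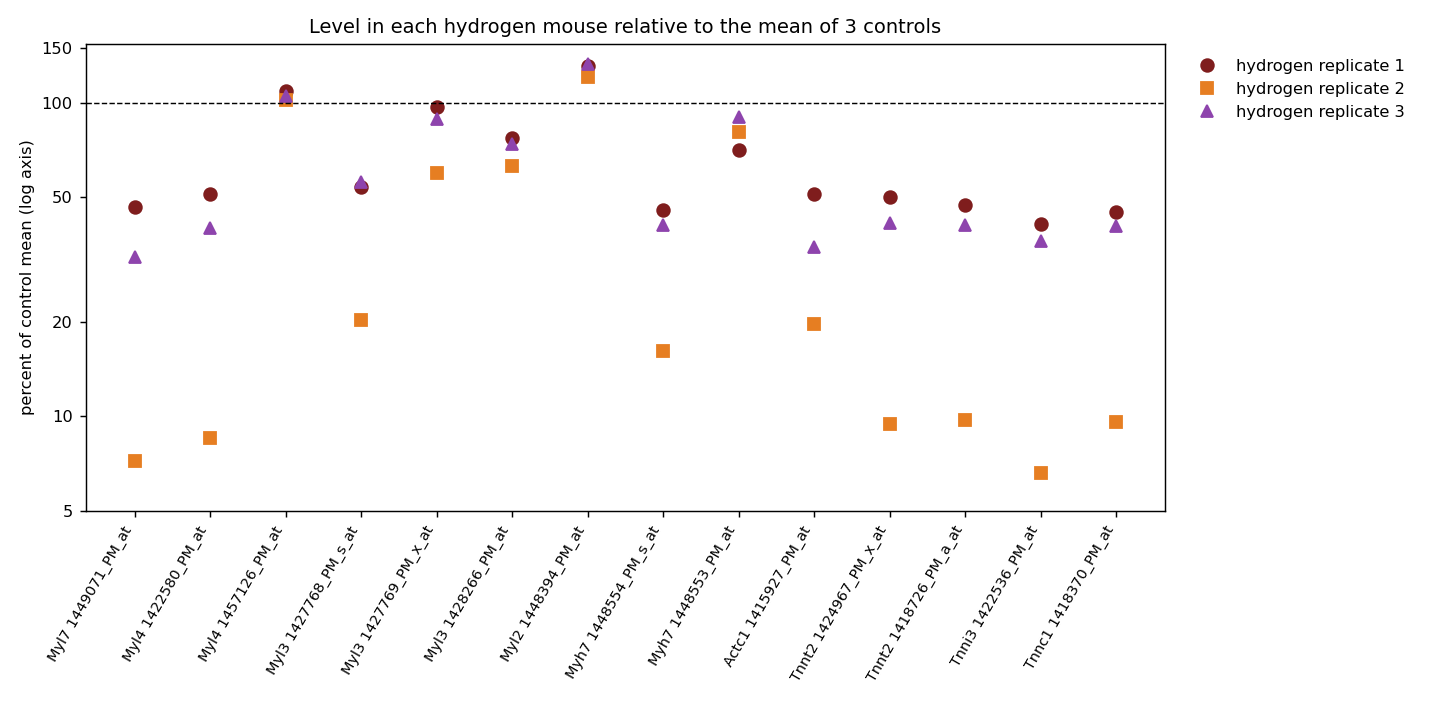
Level in each hydrogen mouse as a percent of the geometric mean of the 3 control mice (vertical log axis) for each of the 14 probe sets. Replicate 2 (squares) falls to 7.23% for Myl7 and 6.61% for Tnni3, whereas the 3 mice lie together for Myl2, for the dim Myl4 probe set and for the Myh7 probe set 1448553_PM_at.

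The pattern over the 6 arrays split the genes more finely than the means. Likeness was measured as the root mean square difference between values centred on the control mean, over 6 arrays and in log2 units, for the brightest probe set of each gene. Myl7 was nearest to Tnni3 among the 9 genes (0.13), followed by Myl4 (0.17). Myl4 lay nearest to Tnnt2 (0.10) and Tnnc1 (0.11). Actc1 and the s probe set of Myh7 were close to each other (0.17) and farther from Myl7 (0.60 and 0.50), since hydrogen replicate 2 had 19.8% and 16.2% of the control level for them. Myl2 was 1.29 to 2.00 from every other gene.

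**Figure D4:**
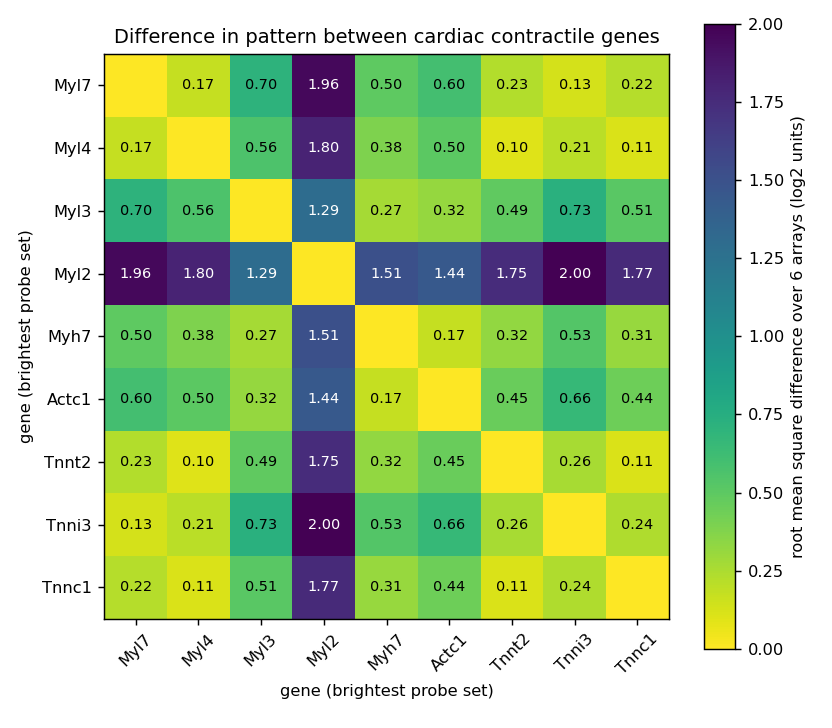
Root mean square difference in pattern over the 6 arrays (colour and number, log2 units) between each pair of the 9 genes, by brightest probe set. Myl7, Myl4, Tnnt2, Tnni3 and Tnnc1 lie within 0.26 of each other, and Myl2 is at least 1.29 from all others.

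Among all 17097 genes, those most like Myl7 were Myoz2, a Z-disc protein of heart and slow muscle (0.13), Tnni3, Myl4, Tnnc1 and Mb, myoglobin (0.22). The nearest to Tnnt2 included, besides Myl4 and Tnnc1, Myoz2, the giant spring protein gene Ttn (0.18) and Pln, which encodes the regulator of the cardiac calcium pump (0.20). Those nearest to Actc1 were Srl, a calcium-binding protein of the sarcoplasmic reticulum (0.09), the calcium release channel gene Ryr2 (0.15), Myh7, Cox6a2, the muscle form of a cytochrome oxidase subunit (0.18), and Ankrd1, a cardiac ankyrin repeat gene (0.19). Myh7 was nearest to Ankrd1 and Srl (both 0.15), Ryr2 and Actc1 (both 0.17) and Myl1 (0.19). Myl3 was nearest to the calcium pump gene Atp2a2 (0.21), Cox6a2 and the Z-disc associated gene Csrp3 (both 0.22), and Lmod2 and Tcap (both 0.23), of the thin filament and the Z-disc. In contrast, the 5 genes nearest to Myl2 (4930521O11Rik, Lypd1, Lypd9, 4930412B13Rik and Cckbr, at 0.02 to 0.03) held no muscle contractile gene. Myl2 lay below the median probe set on all 6 arrays. The measure follows the size of a change, and these 5 had differences of 0.34 to 0.36, so no likeness in kind is read from them.

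Other sarcomere genes were lower too. Of 23 listed partners of these proteins in the filaments, Z-disc and M-band, 17 had a single-gene probe set, of which 15 fell and 0 rose in limma at an adjusted p under 0.05, where 25.9% of all genes fell and 25.5% rose. Of the 17, 14 were brighter than the median probe set, and 37.9% of genes that bright were called lower. The median difference over the 17 was -0.86, against 0.01 over all genes. The largest falls were those of Myoz2 (-2.07, SE 0.51, limma adjusted p = 0.0118), Ttn (-1.93, SE 0.64, limma adjusted p = 0.0362), the actin cross-linker gene Actn2 (-1.91, SE 0.26, limma adjusted p = 0.000906) and the Z-disc gene Ldb3 (-1.63, SE 0.22, limma adjusted p = 0.000962). Actn2 had 5.65, 4.42 and 5.19 in the hydrogen mice, against 7.12, 6.98 and 6.89 in the control mice. The 2 that did not pass, named after their values were seen, were Tnni3k, which encodes a cardiac kinase that binds troponin I (0.18, limma adjusted p = 0.0594), and Smyd1, a muscle methyltransferase (0.02), for which 3 of 5 probe sets rose. The call of Ttn was lost after cyclic loess normalisation (limma adjusted p = 0.0631) and quantile normalisation anew (0.0665), with trend and robust fitting (0.154) and without control replicate 1, 2 or 3 (0.0975, 0.0858 and 0.0654), and that of Myoz2 with trend and robust fitting (0.0808). Without hydrogen replicate 2 the difference was -1.02 for Ttn and -1.34 for Myoz2. Of the 17 partners, 11 were called lower after cyclic loess or with trend and robust fitting. The number was 12 after quantile normalisation anew and 12 to 15 on leaving out 1 array. The share of all genes called was not counted for these settings. The list was picked with earlier results of these data known and is no independent evidence of a direction.

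Chamber markers outside the 9 genes were few. Of 6 listed atrial genes 4 had a single-gene probe set, with a median difference of -0.11. Of these 2 fell and 0 rose, where 25.9% of all genes fell and 25.5% rose. The 2 without a call, named after their values were seen, were Bmp10 (0.17, limma adjusted p = 0.0641) and Kcnj3 (0.02). Bmp10 was dim, with all hydrogen values above all control values. For Kcnj3, 1 of 2 probe sets was called lower. Nppa, the atrial natriuretic peptide gene, had 6.75, 3.96 and 4.19 in the hydrogen mice, against 9.66, 8.63 and 9.60 in the control mice (-4.33, SE 0.66, limma adjusted p = 0.00148), and its order among the hydrogen mice, replicate 1 highest and replicate 2 lowest, was that of Myl7. Hydrogen replicates 2 and 3 lay below the median probe set, where RMA values compress differences, and the difference was -5.22 without hydrogen replicate 1. The atrial potassium channel gene Kcna5 (-0.25, limma adjusted p = 0.0194) was dim, and had no call when control replicate 1, control replicate 2 or hydrogen replicate 2 was left out (0.063, 0.0608 and 0.0719). Sln and Mybphl, further atrial markers, were not analysed here. Of 4 ventricular genes 2 fell and 1 rose, against the same 25.9% and 25.5%. The transcription factor genes Irx5 (-0.46, limma adjusted p = 0.00306) and Hey2 (-0.21, 0.0265) fell and Irx4 (0.29, 0.0315) rose. Irx5 is also expressed in lung, and Irx4 and Hey2 were dim, with 3.63 to 4.13 and 3.05 to 3.38 over the 6 arrays. The call of Irx4 ended after median centring (0.109), cyclic loess (0.207) and renewed quantile normalisation (0.205) and on leaving out any of the 6 arrays but control replicate 1 (0.0598 to 0.0824). That of Hey2 ended with a replicate block (0.0531) and when control replicate 1, control replicate 2, hydrogen replicate 1 or hydrogen replicate 2 was left out (0.0738, 0.0744, 0.0682 and 0.0971), and that of Irx5 after renewed quantile normalisation (0.0622). Shox2, a regulator of the sinus node and the pulmonary vein muscle, was the 1 measured of 3 listed genes of that kind. It fell by 0.18 on the log2 scale (limma adjusted p = 0.0206), but was dim, and its call ended without control replicate 2 (0.0591) or hydrogen replicate 2 (0.0656) and with the mean of its probe sets (0.298).

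Contractile genes of skeletal muscle were mostly dim. Of 18 measured, 3 fell and 8 rose, with a median difference of 0.18, where 25.9% of all genes fell and 25.5% rose, and 32% of probe sets at or below the median probe set rose. The list's mean level was 4.47 to 4.59 in the hydrogen mice and 4.44 to 4.51 in the control mice. Of these 18, 5 were brighter than the median probe set. Myl1, the fast skeletal essential light chain, fell (-1.81, SE 0.23, limma adjusted p = 0.000791), with 6.58, 5.62 and 6.52 in hydrogen and 8.29, 7.91 and 7.96 in control lungs. So did Acta1, skeletal actin (-1.14, SE 0.14, limma adjusted p = 0.000597), which the heart also uses. The slow troponin I gene Tnni1 (0.79, limma adjusted p = 0.000363) and the parvalbumin gene Pvalb (0.75, limma adjusted p = 0.000399) rose. The number that rose was 5 after median centring, cyclic loess or renewed quantile normalisation and 2 without dim probe sets.

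Of 11 measured smooth muscle genes, 8 fell and 0 rose, with a median of -0.35, against 37.9% lower among genes brighter than the median probe set, where 10 of the 11 lay. Myl9, the smooth muscle regulatory light chain, had 8.09, 7.84 and 7.77 in the hydrogen mice, against 8.90, 8.92 and 8.80 in the control mice (-0.97, SE 0.09, limma adjusted p = 0.000283). Synpo2 (-0.76), an actin-associated gene, Myh11 (-0.71), the smooth muscle heavy chain, and Cnn1 (-0.65), calponin, fell as well, although for Myh11 and Synpo2 another probe set rose. Hydrogen replicate 3, not replicate 2, was lowest for these 4 genes. For the 9 cardiac genes replicate 2 was lowest by the brightest probe set, but not for every probe set of Myh7 or every sarcomere partner. Acta2, smooth muscle actin, had -0.30 (limma adjusted p = 0.0726) and was 0.09 without probe sets marked s or x. The call of Cnn1 ended after renewed quantile normalisation (0.0641) and without control replicate 1 or 2 (0.0851 and 0.0675), and 5 genes fell without control replicate 2 or after renewed quantile normalisation.

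Of 8 measured actin, myosin and tropomyosin genes of nonmuscle cells, 1 fell (Tpm4, -0.20, limma adjusted p = 0.0144), 1 rose (Tpm3, 0.16, limma adjusted p = 0.0299) and 6 did not pass, where 25.9% of all genes fell and 25.5% rose. All 8 were brighter than the median probe set, where 37.9% of genes were called lower. Their median was 0.03. Tpm4 had no call after cyclic loess (0.118) or renewed quantile normalisation (0.132), and Tpm3 none after median centring (0.284), with a replicate block (0.0621), with the mean of its probe sets (0.56) or on leaving out any array but control replicate 3 (0.0603 to 0.0828). Myl6, the essential light chain of nonmuscle and smooth muscle cells, had 11.39, 11.47 and 11.41 in hydrogen and 11.32, 11.32 and 11.34 in control lungs. That is a difference of 0.10 (limma adjusted p = 0.158), which was -0.03 with the mean of its probe sets.

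**Figure D5:**
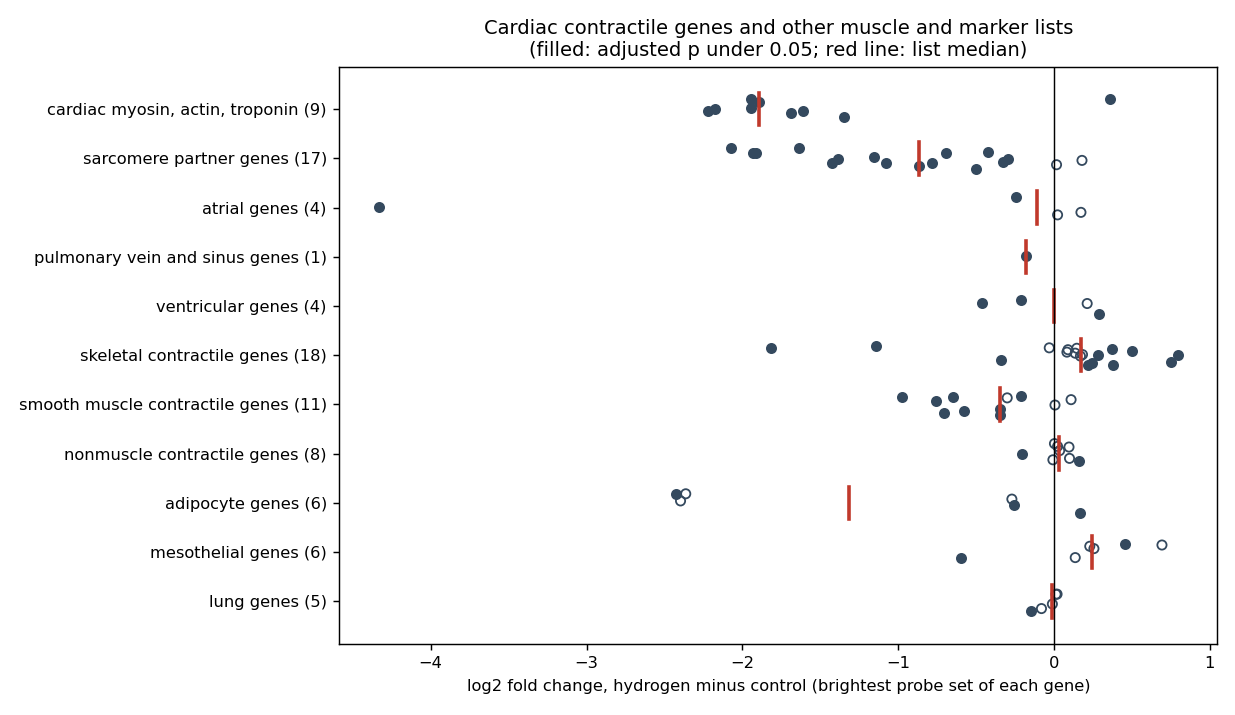
Log2 fold change, hydrogen minus control (horizontal axis), of each gene by its brightest probe set, for the 9 cardiac contractile genes and 10 lists (number measured in brackets), filled where the adjusted p was under 0.05 and with a red line at each median. The sarcomere partners have a median of -0.86 and the skeletal list one of 0.18.

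Markers of other cells that a dissected lung can hold were read in the same way. Of 6 measured adipocyte genes, 2 fell, 1 rose and 3 did not pass, where 25.9% of all genes fell and 25.5% rose. The mean level of the list was 7.52, 5.12 and 6.17 in hydrogen replicates 1, 2 and 3, against 7.41, 7.60 and 7.56 in control replicates 1, 2 and 3. Adipoq, the adiponectin gene, had 7.23, 3.44 and 4.60 in the hydrogen mice, against 7.27, 7.64 and 7.64 in the control mice (-2.43, SE 0.78, limma adjusted p = 0.032). Fabp4 and Car3, fat cell genes named after their values were seen, followed the same order, with 9.79, 5.04 and 7.58 for Fabp4 in hydrogen and 9.70, 9.90 and 10.00 in control lungs. By its brightest probe set neither passed (limma adjusted p = 0.0664 and 0.0887). Over all their probe sets, 0 of 3 for Fabp4 and 2 of 4 for Car3 were called lower. Hydrogen replicate 2 was the lowest hydrogen mouse for Adipoq, Fabp4 and Car3, as for most of the cardiac genes, but Plin4 and Lep were lowest in replicate 3, and Retn, the resistin gene, had 7.30, 6.70 and 6.70 in hydrogen and 7.05, 7.31 and 7.15 in control lungs. In hydrogen replicate 1, by contrast, the list's mean level lay within the control range, while its Myl7 was at 46.7% of the control mean. The part of tissue attached to the lung in the cardiac differences was not tested. The call of Adipoq ended with renewed quantile normalisation (0.0563), with trend and robust fitting (0.145) and on leaving out any array but hydrogen replicate 1 (0.0657 to 0.0864), and its difference was -1.60 without hydrogen replicate 2 and -3.50 without hydrogen replicate 1. Without hydrogen replicate 1, Fabp4 (-3.56, adjusted p = 0.00477) and Car3 (-3.60, 0.00701) passed. Plin4 (-0.26, 0.0422) and Lep (0.17, 0.0335), the other called genes, had no call after cyclic loess (0.2 and 0.393) or renewed quantile normalisation (0.3 and 0.451).

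Of 6 mesothelial genes, against the same shares, Krt19 fell (-0.60, limma adjusted p = 0.000368), Upk1b rose (0.45, limma adjusted p = 0.0047) and 4 did not pass. The list's median difference was 0.24, and its mean level was 6.66 to 6.67 in hydrogen and 6.09 to 6.70 in control lungs. Upk3b, named after its values were seen, had 7.88, 8.01 and 7.86 in hydrogen and 6.51, 7.54 and 7.62 in control lungs. It did not pass (0.69, limma adjusted p = 0.0508), but 1 of its 2 probe sets was called higher. Markers of lung itself were bright in both groups, with a mean level over 5 genes of 11.80 to 11.85 in the hydrogen mice and 11.83 to 11.91 in the control mice. Of these, 1 was called, Ager (-0.15, limma adjusted p = 0.0437), an alveolar type 1 gene, and that call was lost on leaving out any single array (0.0647 to 0.126). The difference between 3' and 5' control probe sets of Gapdh, a sign of RNA integrity, was 0.90, 1.31 and 1.14 in the hydrogen mice and 0.77, 1.14 and 0.96 in the control mice, overlapping between the groups. Hydrogen replicate 2 had the highest of the 6 values, and each hydrogen value lay above that of the control with the same number. For beta-actin it was 1.31, 1.51 and 1.55 in the hydrogen mice and 1.30, 1.51 and 1.30 in the control mice. The part of RNA integrity in the cardiac differences was not tested.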

How the data were processed

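Lung RNA of 6 mice was measured on 1 array each. The authors deposited log2 expression values per probe set; RMA and Affymetrix Expression Console were used, per the submitters' processing notes, with versions and the joint normalisation of the arrays not given in the sources used here. RMA summaries compress differences near the dim end. Of 45141 probe sets, 104 controls were left out and 45037 tested. The platform annotation names 1 gene for 28898, several for 551 and none for 15588. A gene outside the 9 was read by its brightest probe set.

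Groups were compared with limma 3.58.1 (R 4.3.3), lmFit and eBayes without trend, over all probe sets, with Benjamini-Hochberg adjustment and a threshold of 0.05, without a filter. Every adjusted p comes from it. An exact permutation of 3 against 3 cannot go below p = 0.1. The number of arrays limits precision, and the labels do not name separate animals beyond 3 per group in the design. The genes and lists were chosen with earlier results of these data known. The text names all 9 genes, up to 4 called genes with the largest change per list, a preset series (Nppa, Acta1, Tnni1, Myl6, Acta2, and Myh6, Sln and Mybphl where measured) and the 5 genes nearest in pattern to each of the 9. Tnni3k, Smyd1, Bmp10, Kcnj3, Fabp4, Car3, Retn and Upk3b fall outside this rule and were named after their values were seen. The fit was checked on simulated arrays. Protein sequences were not used here. Alternatives were array weights, cyclic loess, median centring, quantile normalisation anew, the mean of a gene's probe sets, a replicate block, trend with robust fitting, no dim probe sets, no probe sets marked s or x, and leaving out each array in turn.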

Additional observations from a re-analysis of the deposited data

How the results depend on the processing

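The 9 genes kept their direction under each of 15 other settings that measured them (Myl2 was not tested without dim probe sets), with Myl7 between -2.71 and -1.37, Tnni3 between -2.69 and -1.37, Actc1 between -1.94 and -1.25, and Myl2 between 0.24 and 0.40. By averaging its probe sets Myl4 was -0.94, and without probe sets marked s or x Myl3 was -0.49 and Myh7 -0.32, since other probe sets were then read. Leaving out 1 array gave 8 to 11 lower probe sets of the 14, and trend and robust fitting 4. Without dim probe sets 0 of the 14 were higher. The replicate block left 11 lower and 1 higher. Apart from trend and robust fitting, the share of all probe sets called was not counted for these settings. Nothing is read from these counts. Same-numbered mice of both groups did not deviate together (r = 0.08, 0.03 and -0.11 over probe sets), and mice with unlike numbers gave -0.14 to 0.11. Over all probe sets no pairing by number was thus seen, but 3 arrays per group cannot exclude one. The 3' minus 5' difference of Gapdh was lowest in replicate 1 and highest in replicate 2 of both groups. That of beta-actin had no such common order.

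For the lists, array weights gave 1 higher sarcomere partner. Cyclic loess gave 5 higher skeletal, 0 lower nonmuscle and 1 called adipocyte gene. Median centring gave 5 higher skeletal and 0 higher nonmuscle genes. Renewed quantile normalisation gave 5 higher skeletal, 5 lower smooth muscle, 0 lower nonmuscle, 1 called ventricular, 0 called adipocyte and 0 called lung genes. The replicate block gave 0 higher nonmuscle and 0 called lung genes, trend and robust fitting 2 higher nonmuscle genes. The mean of all probe sets gave 1 higher sarcomere partner, 1 higher atrial, 2 lower and 0 higher nonmuscle, 0 called lung and 0 called pulmonary vein and sinus genes. Without dim probe sets there were 1 lower atrial, 2 higher skeletal, 1 called ventricular, and 0 called pulmonary vein and sinus genes, since dim genes were then not tested, and 0 called lung genes (Ager, limma adjusted p = 0.0588), and without shared probe sets 0 called lung genes. Leaving out 1 array gave 0 to 1 higher sarcomere partners, 1 to 2 lower and 0 to 1 higher atrial, 0 to 1 called pulmonary vein and sinus, 1 to 2 called ventricular, 5 to 8 lower smooth muscle, 0 to 1 higher nonmuscle, 0 to 5 called adipocyte, 2 to 4 called mesothelial and 0 called lung genes. Acta2 turned to 0.093 without shared probe sets, Myl6 to -0.027 by averaging its probe sets, and Smyd1 to -0.00099 after cyclic loess and -0.073 after median centring, with -0.017 to 0.038 on leaving out 1 array. Shares over all genes were not counted for these settings, and the causes were not tested. Signal near the dim end limits Myl2, Nppa in hydrogen lungs and most skeletal genes.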
